A study of Mus musculus with 6 samples.

Results

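The 30 genes described here make, regulate, take up, store or export cholesterol, and they were chosen by symbol from the 28601 genes of the deposited liver table. They comprise 18 enzymes of cholesterol synthesis, 4 genes of SREBP-2 control, 3 of uptake and intracellular transport, 3 of efflux and 2 of esterification. All 30 were found in the table, and 29 of them were among the 18648 genes with enough counts to be tested. The livers came from male mice on CDAHFD, a high-fat diet of defined amino acids that lacks choline and is used to produce steatohepatitis. One group of 3 mice was WT, and the other group of 3 carried PRDX1 Cys52Ser, a substitution of the peroxide-reacting cysteine of peroxiredoxin 1. Both groups had the diet, so there was no group on ordinary food, and the labels name neither the strain nor the way the allele was made. By the series design the diet started at 8 weeks of age and ran for 8 weeks. Gene-level counts cannot show a change of a single residue and so give no check of the genotype labels. The treatment field gives other durations, 8, 9 and 10 weeks for WT replicates 1 to 3 and 11, 12 and 13 weeks for Cys52Ser replicates 1 to 3, and taken literally these could not be told apart from genotype.

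Hepatocytes build cholesterol from acetyl-CoA, first through mevalonate to farnesyl diphosphate and then through squalene and lanosterol. Transcription of most of these enzymes is driven by SREBP-2, a membrane-bound factor that SCAP escorts out of the endoplasmic reticulum when sterols are scarce and that INSIG proteins hold back when sterols are plentiful. Excess cholesterol is esterified by SOAT enzymes, passed to apolipoproteins by ABCA1 or pumped into bile by the ABCG5-ABCG8 heterodimer, whose genes are targets of the liver X receptors.

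SREBP-2 binds sterol regulatory elements close to transcription start sites, usually beside CCAAT boxes bound by NF-Y and GGGCGG boxes bound by Sp1. Promoter windows from 250 bases before to 50 bases after the start were taken from RefSeq (GRCm38.p6) for 25 of the 30 genes. The element core TCACNCCAC, searched on both strands, was in the window of 1 member, Hmgcs1, and in 1.24% of all 32851 windows. A shorter form, TCACNCCA, which overlaps the first and was chosen after that count was seen, was in windows of Hmgcs1, Msmo1 and Srebf2 and in 4.36% of all windows. CCAAT was present for 22 of the 25 members, and for 14 of the 15 synthesis enzymes with a window. GGGCGG was present for 21 members. Counted by window, CCAAT was in 68.8% of the 32 member windows and 37.4% of all windows, and GGGCGG in 75.0% and 35.7%. The stretches below show the promoters of Hmgcs1, of the SREBP-2 gene itself and of its feedback partner Insig1, and the gap between the RefSeq start sites of Abcg5 and Abcg8, which are transcribed away from each other. Capitals mark TCACNCCA and the CCAAT box, which reads ATTGG where it lies on the other strand. Each sequence is the plus strand of GRCm38.p6, read 5′ to 3′. The Hmgcs1 stretch is chr13:119690101-119690350, that of Srebf2 is chr15:82147019-82147180, that of Insig1 is chr5:28071162-28071362, and the Abcg5-Abcg8 gap of 109 bases is chr17:84683012-84683120.
Hmgcs1: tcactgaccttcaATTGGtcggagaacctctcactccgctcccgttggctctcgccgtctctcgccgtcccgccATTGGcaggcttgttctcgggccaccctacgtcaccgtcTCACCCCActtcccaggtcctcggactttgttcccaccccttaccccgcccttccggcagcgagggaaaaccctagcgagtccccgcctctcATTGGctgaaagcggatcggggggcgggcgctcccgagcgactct
Srebf2: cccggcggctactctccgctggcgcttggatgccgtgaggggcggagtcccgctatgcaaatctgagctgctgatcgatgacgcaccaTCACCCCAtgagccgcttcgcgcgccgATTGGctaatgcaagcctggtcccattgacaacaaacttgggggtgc
Insig1: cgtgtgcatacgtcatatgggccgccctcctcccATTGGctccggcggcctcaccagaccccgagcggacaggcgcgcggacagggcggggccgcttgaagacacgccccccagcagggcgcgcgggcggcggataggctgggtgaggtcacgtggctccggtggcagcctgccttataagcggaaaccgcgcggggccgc
Abcg5-Abcg8: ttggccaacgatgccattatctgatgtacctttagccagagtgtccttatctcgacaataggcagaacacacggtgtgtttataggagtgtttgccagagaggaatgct
In the Hmgcs1 stretch the shorter element lies with 3 CCAAT boxes, and in that of Srebf2 with 1. The Abcg5-Abcg8 gap held none of the motifs searched, which says only that these letters are not in this stretch. Abcg5 and Abcg8 are both among the members with CCAAT in their promoter windows, which extend beyond this gap.

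None of the 29 tested genes passed the edgeR quasi-likelihood test at an adjusted p of 0.05, whereas 4.98% of all tested genes did. At an unadjusted edgeR p under 0.05 there were 11 members, 9 higher and 2 lower in Cys52Ser, and 22.4% of all tested genes. The log2 fold change was above 0 for 24 of the 29 members, against 49.7% of all genes. Every Cys52Ser library lay above every WT library for 13 members, against 14.4% of all genes, and below every WT library for 1 member, Soat1, against 15.2%. Those comparisons use TMM-scaled CPM. On the FPKM scale only Abcg5, Dhcr7 and Ebp of the 13 kept all Cys52Ser libraries above all WT libraries, and the others overlapped. The share of all genes apart on the FPKM scale was not computed, so this count has no background. Soat1 stayed below on the FPKM scale, and Soat2, which overlapped in TMM-scaled CPM, lay below there as well. The median log2 fold change of the 29 was 0.41, and that of all tested genes was 0.00 at 2 decimals. By role the medians ran from -0.47 for the 2 esterification enzymes to 0.92 for the 3 efflux transporters. With DESeq2, which called 14.8% of all genes, 9 members passed: Abcg5, Abcg8, Abca1, Dhcr7, Hsd17b7, Ebp, Srebf2 and Scap rose and Soat1 fell. Scaled by library totals alone, edgeR called 16.2% of all genes and 3 members: Abcg5 rose, and Soat1 and Soat2 fell. The same 3 were called by limma on log2(FPKM + 0.5), which called 15.2% of all genes.

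The libraries held 53318196 to 73900923 counts, and albumin, the defining hepatocyte product, took 3.60% to 8.49% of them in each of the 6, as fits the liver label. TMM factors, which set the scale of all CPM values below, were 1.05 to 1.21 in WT and 0.814 to 0.963 in Cys52Ser. With library totals in their place the median of all genes was -0.35, the members' median was 0.05 and 18 members instead of 24 were above 0. The distance between members and all genes was 0.41 with TMM and 0.40 with library totals. It was 0.28 to 0.42 in the limma fits on FPKM. With 1 library left out it ran from 0.23 (without WT replicate 2) to 0.53 (without WT replicate 1). Markers of cell types also moved with genotype. The summed level of 10 hepatocyte markers was 41377 to 71472 CPM in WT and 110039 to 135786 CPM in Cys52Ser, and 3 of the 10 rose. Albumin is 1 of these 10 and weighs heavily on their sum. The 10 markers of lipid-associated macrophages summed to 1752 to 3014 CPM in WT and 767 to 977 CPM in Cys52Ser (4 fell). The 10 of stellate cells summed to 1332 to 2294 CPM and 795 to 949 CPM (6 fell, and 2 had log2 fold changes above 0). Cholangiocyte markers were also lower in sum, at 639 to 1351 CPM in WT and 159 to 444 CPM in Cys52Ser (2 of 9 fell, and 1 had a log2 fold change above 0). Spp1 is in both the macrophage and the cholangiocyte list. Per length it is the most abundant gene of each in WT, at 482 FPKM, so these sums are not independent. Kupffer cell markers went the other way, from 254 to 703 CPM in WT to 856 to 1110 CPM in Cys52Ser (3 of 7 rose). So did those of sinusoidal endothelium, from 359 to 399.5 CPM to 413 to 503 CPM (3 of 8 rose, and 1 had a log2 fold change below 0). The part of these cell types in the differences described below was not tested. In whole liver more cells of a type cannot be told apart from more RNA per cell.

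**Figure D1:**
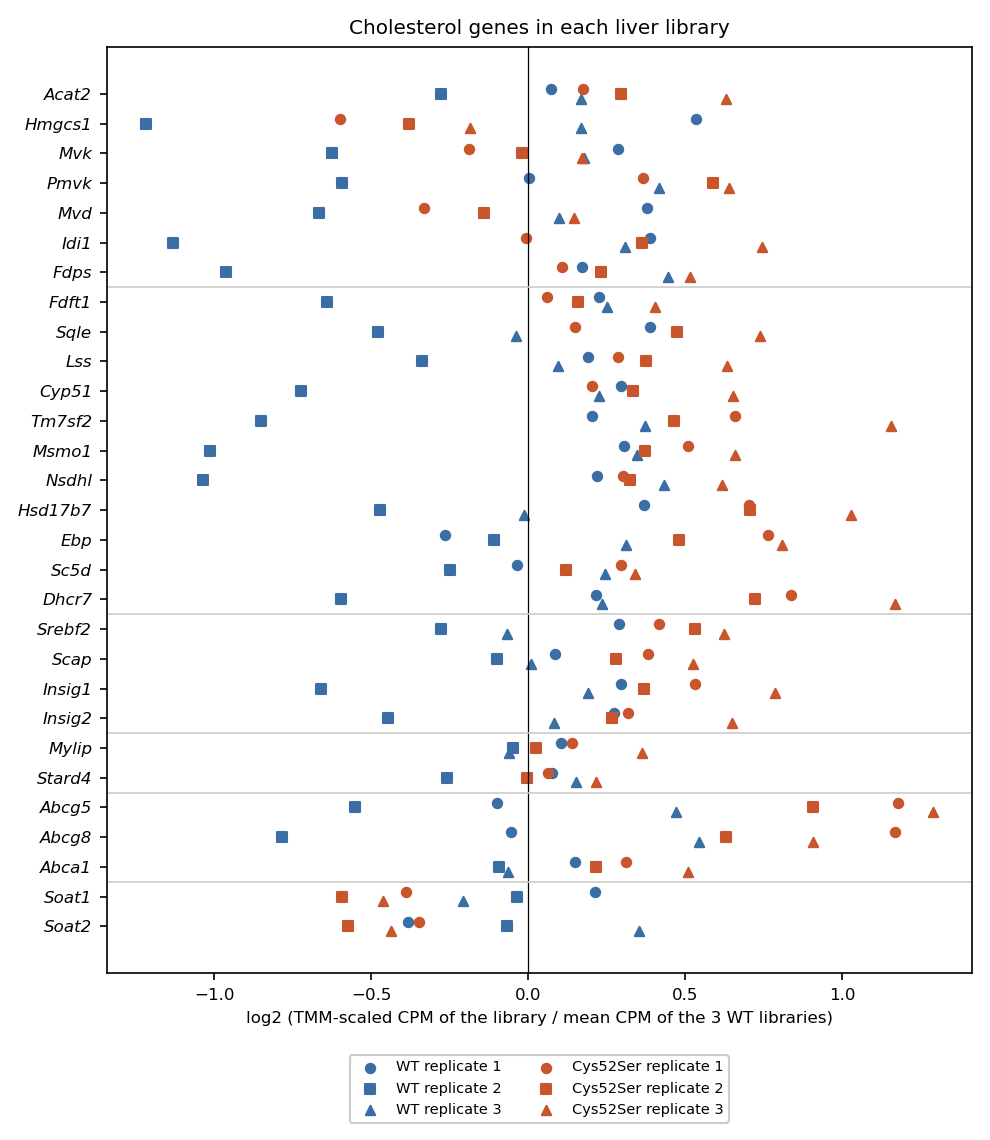
Level of each of the 29 tested genes in each library, as log2 of TMM-scaled CPM over the mean of the 3 WT libraries (horizontal axis, no unit), with WT in blue and Cys52Ser in orange, and grey lines parting the roles from the mevalonate arm at the top to esterification at the bottom. WT replicate 2 (blue squares) is the lowest of the 6 libraries for 25 genes, and Cys52Ser replicate 3 (orange triangles) is the highest for 23.

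The members also differed within WT, in a pattern of 1 mouse that was noticed after its values were seen. WT replicate 2 was the lowest of all 6 libraries for 25 of the 29 members (86.2%), while it was lowest for 16.1% of all tested genes. Among the 18 synthesis enzymes this held for 17, all except Ebp. Relative to the WT mean, the median member stood at 0.21, -0.55 and 0.19 on the log2 scale in WT replicates 1 to 3, and at 0.30, 0.32 and 0.63 in Cys52Ser replicates 1 to 3. Cys52Ser replicate 3 was the highest library for 23 members (79.3%), against 22.9% of all genes. The SD of log2 CPM was larger in WT than in Cys52Ser for 25 members (86.2%), against 50.9% of all genes, and its median was 0.47 in WT and 0.18 in Cys52Ser. Among 9387 genes of at least 10 CPM, 18 of the 29 members were in the 5% lowest in WT replicate 2 relative to the other WT libraries. The sum of hepatocyte markers, on which albumin weighs heavily, was not low in that library, at 62099 CPM against 41377 and 71472 CPM in WT replicates 1 and 3. Without WT replicate 2 the members' median log2 fold change was 0.19 and that of the synthesis enzymes 0.12, against 0.41 for both with all libraries, and 20 members instead of 24 were above 0. All 24 had smaller values without that library, 17 of them by over 1.5 times or down to below 0.

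In the mevalonate arm, 4 of 7 genes had log2 fold changes above 0, the median was 0.29 and none passed. Hmgcs1 makes HMG-CoA, the precursor of mevalonate. Per transcript length and by mean it was the most abundant member in WT, at 66.0 ± 36.9 FPKM (SD, n = 3). Sc5d exceeded it in WT replicates 2 and 3. Hmgcs1 stood at 436, 130 and 338 CPM in WT replicates 1 to 3 and at 199, 231 and 265 CPM in Cys52Ser replicates 1 to 3. The Cys52Ser values thus lay between the low and the high WT libraries, and WT spanned 3.37-fold against 1.33-fold in Cys52Ser. Its log2 fold change was -0.38 (SE 0.41, edgeR adjusted p = 0.649), and without WT replicate 2 it was -0.79 (edgeR adjusted p = 0.0983).

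Idi1, which isomerizes isopentenyl diphosphate, had 181, 63.0 and 171 CPM in WT and 138, 178 and 232 CPM in Cys52Ser. Fdps, farnesyl diphosphate synthase, had 212, 96.6 and 257 CPM in WT and 203, 221 and 269 CPM in Cys52Ser. In both genes WT replicate 2 was far below the other 5 libraries, and those 5 overlapped between genotypes. The log2 fold changes of Idi1 and Fdps were 0.40 (SE 0.40, edgeR adjusted p = 0.629) and 0.29 (SE 0.34, edgeR adjusted p = 0.674). Without WT replicate 2 they were 0.00 at 2 decimals and -0.07. Fdps also shares its strand with 2 other annotated genes, so its count is uncertain.

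The mevalonate kinase gene Mvk and the decarboxylase gene Mvd had nearly equal means in both genotypes, 27.8 ± 8.56 and 27.7 ± 3.45 CPM for Mvk and 17.5 ± 5.96 and 16.4 ± 2.78 CPM for Mvd (WT and Cys52Ser, SD, n = 3 each). The 95% confidence interval of the log2 fold change was -0.56 to 0.55 for Mvk and -0.73 to 0.53 for Mvd. Without WT replicate 2 the log2 fold changes were -0.29 for Mvk and -0.40 for Mvd (edgeR adjusted p = 0.306 for each). With library totals they were -0.36 and -0.46. Pmvk, phosphomevalonate kinase, had a log2 fold change of 0.54 (SE 0.24, edgeR adjusted p = 0.247). Acat2, the cytosolic thiolase that joins acetyl-CoA units, was the only gene of this arm whose groups did not overlap, at 86.9, 68.2 and 92.9 CPM in WT and 93.4, 101 and 128 CPM in Cys52Ser. The gap between the highest WT and the lowest Cys52Ser library was small, and the edgeR adjusted p was 0.233. On the FPKM scale the groups of Acat2 overlapped.

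All 11 genes of the squalene and sterol arm had log2 fold changes above 0, with a median of 0.47. In 6 of them every Cys52Ser library lay above every WT library in TMM-scaled CPM: Lss, Tm7sf2, Msmo1, Hsd17b7, Ebp and Dhcr7. On the FPKM scale this held for Ebp and Dhcr7 but not for the other genes of the 6. None of the 11 passed. The 3 with the smallest edgeR p belong to late steps of the pathway.

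Dhcr7 (GRCm38 chromosome 7, 143823145 to 143848410) encodes 7-dehydrocholesterol reductase, which makes cholesterol from its immediate precursor. It measured 73.0, 41.6 and 74.1 CPM in WT and 112, 104 and 142 CPM in Cys52Ser. All Cys52Ser libraries stood above all WT libraries, and WT replicate 2 lay well under the other 2 WT libraries. The mean was 1.89-fold higher (log2 fold change 0.92, 95% confidence interval 0.36 to 1.49, edgeR adjusted p = 0.0758). With the replicate number as a block, the edgeR adjusted p was 0.0438, though no label pairs the mice that share a number. With each library left out in turn Dhcr7 did not pass (edgeR adjusted p from 0.0895 to 0.211). Without WT replicate 2 the log2 fold change was 0.64 (edgeR adjusted p = 0.0938).

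Hsd17b7 (chromosome 1, 169949535 to 169969241), the 3-ketosteroid reductase of C4 demethylation, measured 55.4, 31.0 and 42.5 CPM in WT and 69.9, 70.0 and 87.6 CPM in Cys52Ser. The lowest Cys52Ser library exceeded the highest WT library. Its mean was 1.77-fold higher (log2 fold change 0.82, 95% confidence interval 0.32 to 1.32, edgeR adjusted p = 0.0760). Without WT replicate 1, the highest WT library of this gene, the edgeR adjusted p was 0.0495 at a log2 fold change of 0.99. With any other library left out Hsd17b7 did not pass (edgeR adjusted p from 0.101 to 0.215). Without WT replicate 2 its log2 fold change was 0.58 (edgeR adjusted p = 0.144). Ebp (chromosome X, 8185329 to 8193512), the sterol isomerase that moves the ring double bond, measured 93.4, 104 and 140 CPM in WT and 191, 157 and 197 CPM in Cys52Ser. Here WT replicate 2 was not the lowest library, and the groups did not overlap. Ebp was 1.61-fold higher (log2 fold change 0.69, 95% confidence interval 0.27 to 1.11, edgeR adjusted p = 0.0720). Without WT replicate 3, its highest WT library, the edgeR adjusted p was 0.0371 at a log2 fold change of 0.82. With any other library left out Ebp did not pass (edgeR adjusted p from 0.0763 to 0.204). Dhcr7, Hsd17b7 and Ebp are also the synthesis enzymes that DESeq2 called.

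Lss, the lanosterol synthase gene, had the lowest level per length of the 18 enzymes in WT, at 4.56 ± 0.989 FPKM. It measured 56.1, 38.9 and 52.6 CPM in WT and 59.9, 63.8 and 76.3 CPM in Cys52Ser, so the groups were adjacent without overlap (log2 fold change 0.44, SE 0.16, edgeR adjusted p = 0.167). Tm7sf2, a sterol C14 reductase gene, measured 53.1, 25.5 and 59.7 CPM in WT and 72.8, 63.6 and 103 CPM in Cys52Ser (log2 fold change 0.79, SE 0.33, edgeR adjusted p = 0.225, and 0.44 without WT replicate 2). The gene overlaps Vps51 on the same strand, which makes its count uncertain. Msmo1, the C4-methylsterol oxidase gene, measured 171, 68.6 and 176 CPM in WT and 197, 179 and 219 CPM in Cys52Ser. Its log2 fold change of 0.52 (SE 0.34, edgeR adjusted p = 0.431) came down to 0.14 without WT replicate 2.

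The other 5 genes of this arm overlapped between genotypes. Sqle, the squalene epoxidase gene, had a log2 fold change of 0.47 (SE 0.24), the lanosterol demethylase gene Cyp51 one of 0.41 (SE 0.27) and the C4-decarboxylase gene Nsdhl one of 0.42 (SE 0.35). Squalene synthase (Fdft1) and lathosterol oxidase (Sc5d) had 0.21 (SE 0.24) and 0.25 (SE 0.16). The edgeR adjusted p of these 5 ran from 0.306 for Sqle to 0.666 for Fdft1. Cyp51, Nsdhl and Fdft1 came to 0.09, 0.04 and -0.08 without WT replicate 2. Fdft1 and Cyp51 overlap Ctsb and Akap9, respectively, on the opposite strand, which makes their counts uncertain. Per length and by mean, Sc5d was the most abundant of the arm and the second most abundant member in WT, at 63.6 ± 8.27 FPKM, against 59.7 ± 0.973 FPKM in Cys52Ser.

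**Figure D2:**
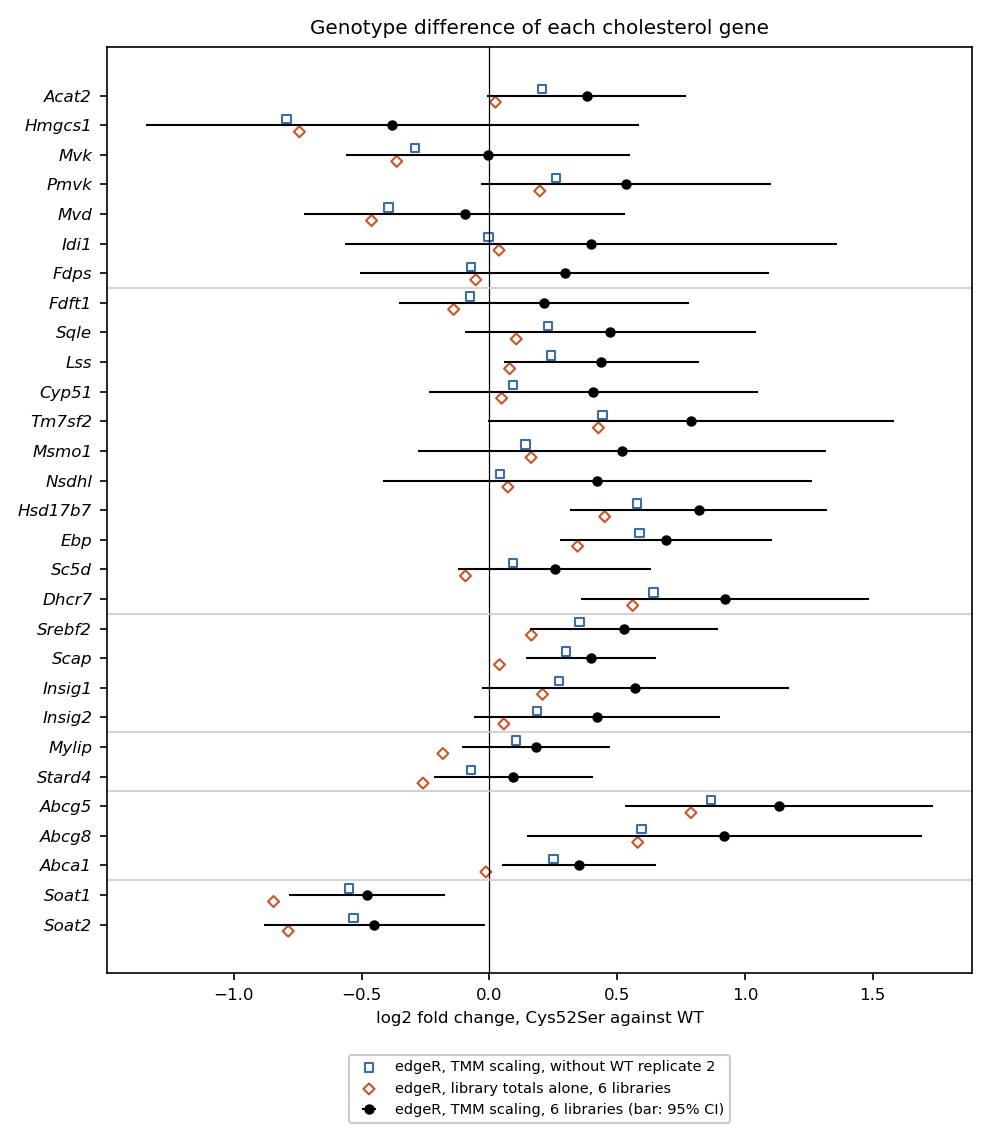
Log2 fold change of Cys52Ser against WT (horizontal axis) for the 29 tested genes, ordered by role, from edgeR with all libraries (black, bars are 95% confidence intervals), without WT replicate 2 (blue squares) and with library totals alone (orange diamonds). The median is 0.41 with all libraries, 0.19 without WT replicate 2 and 0.05 with library totals, and Abcg5 is the rightmost black point at 1.13.

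All 4 genes of SREBP-2 control had log2 fold changes above 0, at a median of 0.47, and in 3 of them the groups did not overlap in TMM-scaled CPM. On the FPKM scale the groups of all 4 overlapped. Srebf2 (chromosome 15, 82147181 to 82205379), which encodes SREBP-2 and overlaps Mir33 and Gm49502 on its own strand, measured 92.5, 62.5 and 72.3 CPM in WT and 101, 109 and 117 CPM in Cys52Ser. Every Cys52Ser library was above every WT library, and the mean was 1.44-fold higher (log2 fold change 0.53, 95% confidence interval 0.16 to 0.89, edgeR adjusted p = 0.101). Scap, the escort protein gene, measured 78.2, 68.8 and 74.2 CPM in WT and 96.1, 89.4 and 106 CPM in Cys52Ser. WT replicate 2 was only slightly below its group here, and the mean was 1.32-fold higher (log2 fold change 0.40, 95% confidence interval 0.14 to 0.65, edgeR adjusted p = 0.0821).

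Insig1, which encodes the sterol-regulated retention protein, measured 212, 109 and 197 CPM in WT and 250, 223 and 298 CPM in Cys52Ser. Only the low WT replicate 2 was far from the rest, and the log2 fold change was 0.57 (SE 0.26, edgeR adjusted p = 0.245). Insig2, its paralog, measured 201, 122 and 176 CPM in WT and 207, 200.1 and 261 CPM in Cys52Ser, with overlapping groups and a log2 fold change of 0.42 (SE 0.21, edgeR adjusted p = 0.281). Without WT replicate 2 Insig1 had a log2 fold change of 0.27 and Insig2 one of 0.19, and the median of the 4 control genes was 0.29. Per length both were well expressed in WT, at 55.9 ± 19.2 FPKM for Insig1 and 48.0 ± 13.5 FPKM for Insig2. Srebf2 and Scap were lower, at 10.6 ± 2.82 and 9.90 ± 1.21 FPKM.

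Of the 3 genes of uptake and intracellular transport, 2 were tested, and neither passed. Mylip, encoding the ubiquitin ligase IDOL that removes lipoprotein receptors, averaged 21.1 ± 1.36 CPM in the WT livers and 24.0 ± 2.91 CPM in the Cys52Ser livers (SD, n = 3 each). Its log2 fold change of 0.18 had a 95% confidence interval of -0.11 to 0.47. Stard4, a cytosolic sterol carrier gene induced by SREBP-2, had 70.8 ± 10.3 and 75.6 ± 6.04 CPM and a log2 fold change of 0.09 (95% confidence interval -0.22 to 0.41). In both genes the groups overlapped. Npc1l1, the sterol importer of enterocytes, was not tested: it had 12, 7 and 8 counts in WT and 0, 17 and 0 in Cys52Ser, with no mean above 0.030 FPKM in either group.

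Abcg5 had the largest log2 fold change of the members, and its partner Abcg8 was close to Dhcr7. The 2 genes encode the subunits of the biliary sterol transporter. Abcg5 (chromosome 17, 84658234 to 84683011) measured 42.1, 30.7 and 62.5 CPM in WT and 102, 84.6 and 110 CPM in Cys52Ser. The lowest Cys52Ser library was above the highest WT library, and the mean was 2.19-fold higher (log2 fold change 1.13, 95% confidence interval 0.53 to 1.73, edgeR adjusted p = 0.0544). Its adjusted p fell under 0.05 in 7 of 14 alternatives: DESeq2, library totals, the limma fits on FPKM, and edgeR with the replicate block (0.0324) or without WT replicate 3 (0.0290). WT replicate 3 is its highest WT library, and no label pairs the mice that share a replicate number. With any other library left out Abcg5 did not pass (edgeR adjusted p from 0.0711 to 0.159). Without WT replicate 2 the log2 fold change was 0.87 (edgeR adjusted p = 0.0993). Abcg8 (chromosome 17, 84676302 to 84700333), the other subunit, measured 43.3, 26.1 and 65.5 CPM in WT and 101, 69.6 and 84.4 CPM in Cys52Ser. The gap between the groups was narrow, and the mean was 1.89-fold higher (log2 fold change 0.92, 95% confidence interval 0.15 to 1.69, edgeR adjusted p = 0.156). Its log2 fold change was 0.59 without WT replicate 2 (edgeR adjusted p = 0.247) and 1.23 without WT replicate 3 (0.0651). The deposited coordinates give Abcg8 an upstream start inside Abcg5, so there the 2 genes overlap on opposite strands, unlike at the RefSeq start of Abcg8 (84683121) used for the promoter stretch, and whether counting used the strand is not stated by the labels, so their counts may not be independent.

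Both subunits had the same order of WT libraries, with replicate 3 highest and replicate 2 lowest. Per length, Abcg5 was 16.4 ± 4.88 FPKM in WT and 28.4 ± 1.71 FPKM in Cys52Ser, and Abcg8 was 11.8 ± 4.54 and 17.7 ± 2.78 FPKM (SD, n = 3 each). Abca1, which loads cholesterol onto apolipoprotein A-I and is expressed by macrophages as well as hepatocytes, measured 150.1, 127 and 129 CPM in WT and 168, 157 and 192 CPM in Cys52Ser. The groups lay next to each other without overlap (log2 fold change 0.35, 95% confidence interval 0.05 to 0.65, edgeR adjusted p = 0.162). On the FPKM scale the Cys52Ser libraries of Abca1 (12.5, 12.9 and 13.6 FPKM) lay inside the WT range (15.6, 12.3 and 11.4 FPKM), and with library totals its log2 fold change was -0.01.

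Esterification was the one role whose tested genes all had negative log2 fold changes. Soat1 (chromosome 1, 156424525 to 156474331), the sterol O-acyltransferase of macrophages and most other cells, measured 49.6, 41.7 and 37.0 CPM in WT and 32.6, 28.3 and 31.0 CPM in Cys52Ser. All Cys52Ser libraries were below all WT libraries, and the WT mean was 1.40-fold higher (log2 fold change -0.48, 95% confidence interval -0.79 to -0.17, edgeR adjusted p = 0.0816). Under 6 of the 14 alternatives it was called lower: library totals, the limma fits on FPKM, DESeq2 and edgeR without WT replicate 3. With library totals and limma on FPKM the median of all genes is also below 0. Soat2, the form of hepatocytes and enterocytes that supplies cholesteryl ester for lipoproteins, measured 37.8, 47.0 and 62.9 CPM in WT and 38.7, 33.1 and 36.3 CPM in Cys52Ser. WT replicate 1 lay inside the Cys52Ser range, and the log2 fold change was -0.45 (95% confidence interval -0.88 to -0.02, edgeR adjusted p = 0.205). Soat2 passed in 4 of 14 alternatives, those with library totals and limma on FPKM, where the median of all genes is also below 0. Per length Soat2 was the more abundant, at 21.9 ± 3.88 FPKM in WT and 12.7 ± 0.767 FPKM in Cys52Ser, against 4.40 ± 0.999 and 2.45 ± 0.131 FPKM for Soat1 (SD, n = 3 each). WT replicate 2 was not the lowest library for either gene. The summed markers of lipid-associated macrophages were lower in Cys52Ser too, while those of Kupffer cells, the resident macrophages, were higher, and the part of either in the Soat1 difference was not tested.

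**Figure D3:**
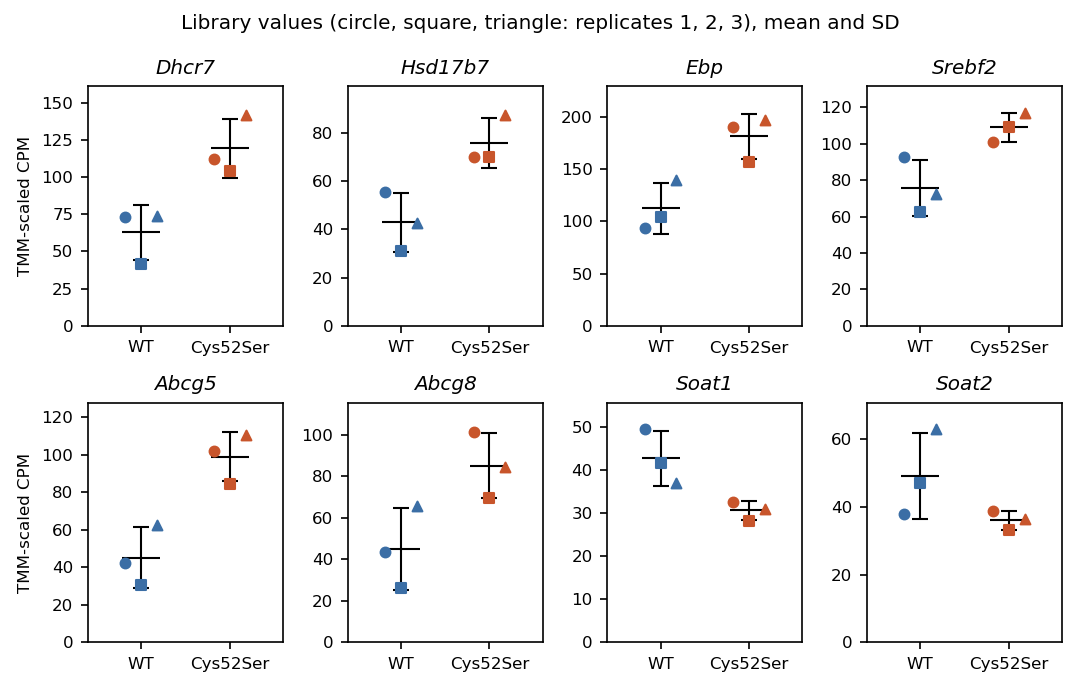
TMM-scaled CPM (vertical axes, each from 0) of 3 sterol arm genes, Srebf2, the 2 subunits of the biliary transporter and the 2 esterification genes, with 1 point per library and bars for the mean and SD of each group of 3. On this scale the groups are apart for 7 of the 8 genes, 6 of them higher in Cys52Ser and Soat1 lower, while the Soat2 values of WT replicate 1 (37.8) and Cys52Ser replicate 1 (38.7) overlap.

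Among 42 further genes of cholesterol handling, all tested, 3 rose and none fell (4.98% of all genes were called). At an unadjusted edgeR p under 0.05 there were 11 higher and 5 lower, and 22.4% of all genes in either direction. Of the 42, 25 had log2 fold changes above 0, against 49.7% of all genes, and the median was 0.15. This balance depends on the scaling: with library totals 1 gene, Lcat, was called higher and 12 were called lower, and 13 were above 0. That setting called 16.2% of all genes. Srebf1, encoding the SREBP-1 factors of fatty acid synthesis, rose 2.13-fold with means of 134 ± 40.2 CPM for WT and 284 ± 36.7 CPM for Cys52Ser (SD over 3 mice, edgeR adjusted p = 0.0487). Lcat, the plasma enzyme that esterifies cholesterol on lipoproteins, rose 1.73-fold from 208 ± 30.5 to 359 ± 57.1 CPM (edgeR adjusted p = 0.0480). Both calls lie close to the threshold. With any 1 library left out Lcat did not pass (edgeR adjusted p from 0.0562 to 0.143), and Srebf1 passed only without WT replicate 3 (0.0461, otherwise 0.0594 to 0.147). With library totals Srebf1 did not pass either (edgeR adjusted p = 0.101).

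The other genes named from each list did not pass. In the isoprenoid branch, Pdss1, a subunit of the enzyme for the ubiquinone tail, had a log2 fold change of 0.88 (edgeR adjusted p = 0.0729), and Acly, which supplies cytosolic acetyl-CoA, one of 0.51 (0.130). Of the sterol-sensing genes, Pgrmc1 had 0.32 (0.304). Of the liver X receptor and oxysterol genes, Nr1h3, which encodes LXRα, had 0.44 (0.139), the cholesterol 25-hydroxylase gene Ch25h -1.69 (0.0729) and the sterol 27-hydroxylase gene Cyp27a1 0.92 (0.114). Among receptors and carriers, Scarb1, the HDL receptor gene, had 0.58 (0.0683), and Gramd1b, encoding a sterol transfer protein of the endoplasmic reticulum, -0.87 (0.0767). Ch25h was low in every library, with means of 2.35 ± 0.830 CPM for WT and 0.724 ± 0.220 CPM for Cys52Ser.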

How the data were processed

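Liver RNA was sequenced as strand-marked, oligo(dT)-selected libraries with molecular identifiers, per the labels' protocols. Per the file headers, the deposited table gives each gene an estimated count for every mouse. The same table holds FPKM for every mouse, per the file headers. The FPKM values were scaled to library size and transcript length by the authors. Tools listed in the submitters' processing notes, without their roles, are HISAT2 2.0.4, StringTie 1.3.4d, cutadapt 1.9, edgeR, DESeq2 and UMI-tools, and mm9 is the build listed. Coordinates in the table equal GENCODE M21 (GRCm38) for 28 of the 30 genes, all except Tm7sf2 and Scap, so positions are given as GRCm38.

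The estimated counts, as deposited, were already whole, so rounding changed nothing. Total counts per library (53318196 to 73900923) set the counting precision, and replicates are separate mice by the design. The main test was edgeR 4.0.16 in R 4.3.3 (filterByExpr with a minimum count of 10, TMM, robust quasi-likelihood fit, genotype as the only term), with Benjamini-Hochberg adjustment over 18648 genes and a threshold of 0.05. Each level is a TMM-scaled CPM, and FPKM serves to compare genes. The test was checked on simulated data. Of the 30 genes, 16 overlap no other gene in the annotation, 3 overlap one on the same strand and 11 one on the opposite strand. Alternatives were RLE factors, library totals, no count filter, DESeq2 1.42.0, limma 3.58.1 on log2(FPKM + 0.1, 0.5 or 1), the replicate number as a block, and leaving out each library.

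Members and lists were chosen with earlier results of these data known. By rule every library's value is given for the 10 members with the smallest p, and those of other members were added after they were seen. From the lists of other cholesterol genes, called genes and the 3 smallest p were named, except that some of these are not reported here by name and stay in the counts. Promoters were read from the RefSeq table, and 5 members without an entry (Stard4, Fdps, Fdft1, Sqle and Soat2) were left out there.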

Additional observations from a re-analysis of the deposited data

How the results depend on the processing

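Of 406 log2 fold changes of the 29 genes under 14 alternatives, 347 kept their direction and side of the threshold, 27 passed it and 32 reversed. No gene was called in all alternatives, and 19 were called in none. Library totals gave 3017 changed genes (293 higher, 2724 lower, against 469 and 459), DESeq2 2766, limma 2820, 2686 and 2908 (pseudocounts 0.5, 1 and 0.1), and leaving out 1 library 28 (without Cys52Ser replicate 3) to 790 (without WT replicate 3). Members called were 3, 9, 3, 3 and 3 in the same order, 2 with the replicate block and 0 to 3 without 1 library. The members' median was 0.048 with library totals. Other cholesterol genes called were 13 with library totals (1 higher, 12 lower), 12 with DESeq2 (10 higher, 2 lower), 11 in each limma fit (1 higher, 10 lower) and 0 to 2 without 1 library. The cause of these changes was not tested. Library totals and limma on FPKM (0.5, 1 and 0.1) reversed Fdft1 (-0.14; -0.086, -0.085 and -0.086), Sc5d (-0.094; -0.082, -0.082 and -0.083), Mylip (-0.18; -0.16, -0.15 and -0.17), Stard4 (-0.26; -0.24, -0.23 and -0.25), Abca1 (-0.014; -0.00036, -0.00071 and -3.2e-05) and Pgrmc1 (-0.031; -0.027, -0.027 and -0.027), and library totals reversed Fdps (-0.054). Without 1 library, Mvk ranged from -0.29 to 0.11, Mvd from -0.40 to 0.087, Idi1 from -0.0038 to 0.59, Fdps from -0.073 to 0.52, Fdft1 from -0.076 to 0.30 and Stard4 from -0.071 to 0.14. With the replicate block 729 genes were called, and Mvk was 0.038. No label pairs the mice by replicate number. Deviations of same-numbered libraries from their group means correlated at 0.0051, 0.17 and 0.064, and not every library correlated best with its own number. With 3 mice per group these correlations cannot decide whether any mice were paired. Depth limited Npc1l1 alone, at 17 counts or fewer per library.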

Other observations

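Outside the cholesterol genes, the library with low synthesis enzymes, WT replicate 2, stood apart in other genes too, chosen after their values were seen. Thrsp, a lipogenic gene, measured 8.94 CPM there against 90.0 and 62.5 CPM in WT replicates 1 and 3. All 18 Mup genes (major urinary proteins) of at least 10 CPM were lowest there among the WT libraries. Their median log2 difference from the other WT libraries was -2.72, although near-identical copies share reads, so single members are uncertain. Apoa4 measured 3893 CPM against 654 and 787 CPM, Cyp4a14, a PPARα target, 609 CPM against 118 and 186 CPM, and Fgf21 97.3 CPM against 28.4 and 40.9 CPM. These are values of 1 mouse, and their relation to its cholesterol genes was not tested.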
